A study of Mus musculus with 12 samples.

Results

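Feedback and direct target genes of canonical Wnt signalling were followed in cortical endothelial cells of the mouse brain, sorted by flow cytometry. The members are Axin2, Lef1, Tcf7, Nkd1, Apcdd1, Notum, Znrf3, Rnf43, Sp5 and Tnfrsf19, taken by symbol from the deposited table, 10 of its 21638 genes. The list names known beta-catenin targets, and its rule uses no measured value. It was, however, chosen with earlier results of these data known. Each was examined over 4 groups of 3 libraries, from wild-type mice (WT), from endothelial knockouts of Hdac2 (Hdac2 ECKO) and of Ezh2 (Ezh2 ECKO), and from mice with endothelial gain of function of beta-catenin (beta-catenin GOF). Hdac2 encodes a histone deacetylase, Ezh2 the methyltransferase of Polycomb repressive complex 2, and Ctnnb1 encodes beta-catenin. By genotype the mutants were Hdac2lox/lox:Cdh5CreERT2 for the first, Ezh2lox/lox:Cdh5CreERT2 for the second and, for the third, Ctnnb1lox/lox:Cdh5CreERT2. Cdh5CreERT2 is a tamoxifen-dependent Cre recombinase driven by the VE-cadherin promoter, so that recombination is directed to endothelium. Tamoxifen was given in 5 doses of 75 mg/kg, and brains were taken 2 months later. The mice were adults, with no further age in the labels, which also do not state whether WT mice carried Cre or received tamoxifen. Sorting kept cells with CD31 and without CD41 or CD45, a gate that selects endothelium against platelets and leukocytes.

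In canonical Wnt signalling, ligands bind Frizzled and Lrp5 or Lrp6 receptors, beta-catenin escapes its destruction complex, and it enters the nucleus to act with factors of the TCF/LEF family. Several of the induced genes feed back on the pathway: Axin2 is a scaffold of the destruction complex, Nkd1 binds Dishevelled, Apcdd1 and Notum act on the ligand outside the cell or at its surface, and Znrf3 and Rnf43 are ubiquitin ligases that remove Frizzled receptors. Lef1 and Tcf7 encode TCF/LEF factors themselves, Sp5 encodes a transcription factor, and Tnfrsf19 encodes a receptor of the tumour necrosis factor receptor family. In brain endothelium this pathway is known for establishing and maintaining the blood-brain barrier.

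The letters that TCF/LEF factors bind were searched in the promoter sequences of the members, because these genes were listed as direct targets. The letters were CTTTGAA and CTTTGAT, and with T in place of A before the last letter CTTTGTA and CTTTGTT, on both strands, in the 250 bases before each RefSeq start (assembly GRCm38.p6). RefSeq sequences matched 7 members by symbol, with 13 windows, and 3 members (Apcdd1, Notum and Znrf3) had no entry. Windows of Sp5, Tnfrsf19 and Lef1 held a match, 3 of the 13, against 14.8% of 32851 promoter windows of the same length. CTTTGAT alone stood in 2 of the 13 windows, against 3.21% of all windows. Shown are these 3 windows and, as the most widely used Wnt readout, that of Axin2, in which none of the 4 words occurred. They are written 5′ to 3′ on the strand of the gene, with matches in capitals. The Sp5 window is chr2:70474673-70474922 (plus strand), the Axin2 window chr11:108920099-108920348 (plus strand), the Tnfrsf19 window chr14:61037988-61038237 (minus strand) and the Lef1 window chr3:131156044-131156293 (plus strand). The Tnfrsf19 and Lef1 windows shown lie inside their genes, before an internal start. Inside their genes also lie a further Lef1 window, the only Nkd1 window and all windows of Tcf7 and Rnf43. The Lef1 windows before the gene start overlap each other, so the 13 windows are not all separate. The Tnfrsf19 window also overlaps an exon of the lincRNA gene Gm41168 on the other strand.
Sp5: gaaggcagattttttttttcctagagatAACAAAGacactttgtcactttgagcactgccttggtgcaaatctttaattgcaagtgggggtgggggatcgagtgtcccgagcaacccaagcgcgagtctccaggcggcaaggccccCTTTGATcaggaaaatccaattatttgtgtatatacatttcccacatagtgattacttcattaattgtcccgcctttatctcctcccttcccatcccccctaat
Tnfrsf19: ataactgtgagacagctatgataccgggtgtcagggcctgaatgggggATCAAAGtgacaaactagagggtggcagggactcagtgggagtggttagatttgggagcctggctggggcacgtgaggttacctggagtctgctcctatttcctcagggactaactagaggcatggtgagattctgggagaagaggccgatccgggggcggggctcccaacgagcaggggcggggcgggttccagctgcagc
Lef1: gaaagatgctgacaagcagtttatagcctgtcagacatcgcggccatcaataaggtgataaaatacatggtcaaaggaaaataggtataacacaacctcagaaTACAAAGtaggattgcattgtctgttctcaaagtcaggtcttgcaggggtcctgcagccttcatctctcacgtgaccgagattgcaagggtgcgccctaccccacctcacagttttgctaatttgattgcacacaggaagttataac
Axin2: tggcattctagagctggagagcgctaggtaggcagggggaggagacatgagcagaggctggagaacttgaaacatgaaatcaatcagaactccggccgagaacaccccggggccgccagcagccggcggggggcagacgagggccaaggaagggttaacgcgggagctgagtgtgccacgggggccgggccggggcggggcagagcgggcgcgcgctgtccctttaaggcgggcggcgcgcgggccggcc
In Sp5, CTTTGTT on the minus strand covered 222 to 216 bases before the start, and CTTTGAT on the plus strand covered 104 to 98 bases before it. In Tnfrsf19, CTTTGAT on the minus strand covered 202 to 196 bases before the start, and in Lef1, CTTTGTA on the minus strand covered 147 to 141 bases before it. A match is a string of letters in these windows, and binding was not measured.

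Libraries held 24781070 to 36109975 counts. Levels are given as CPM, the count per 1000000 counts of the library total after TMM scaling. A floor of 3 counts corresponded to 0.0831 to 0.121 CPM, and for lack of molecular identifiers it covers counting error only. The 95% intervals come from the edgeR fit and include the spread between libraries. The 12 endothelial markers were all detected, with summed levels of 6045 to 8626 CPM. Single markers moved in opposite directions within that sum. Mean Cldn5 was 1491 CPM in WT, 697 CPM in Hdac2 ECKO and 687 CPM in libraries labelled Ezh2 ECKO. Mean Cdh5 was 150, 247 and 253 CPM in the same order. Hdac2 itself was at 163, 122 and 104 CPM in WT replicates 1, 2 and 3 and in the Hdac2 ECKO replicates at 82.2, 94.99 and 112 CPM, a log2 difference of −0.42 (SE 0.24) that missed the threshold (edgeR adjusted p = 0.225). Replicate 3 lay within the WT range, and beta-catenin GOF, which carries no Hdac2 allele in the labels, held 88.6, 92.3 and 108 CPM, a log2 difference from WT of −0.43 (SE 0.24, edgeR adjusted p = 0.884). The Hdac2 count thus did not set Hdac2 ECKO apart, and directions given for that group rest on its label. Ezh2 was at 8.88, 2.69 and 8.69 CPM in WT and at 9.85, 5.19 and 11.7 CPM in libraries labelled Ezh2 ECKO, a log2 difference of 0.40 (SE 0.46, edgeR adjusted p = 0.615). Its 95% interval of −0.58 to 1.38 included 0, so the Ezh2 level did not bear out that label. The group is therefore called the 3 libraries labelled Ezh2 ECKO throughout. These are counts over whole genes, so a deleted exon was not looked at. Ctnnb1 was at 654 ± 138 CPM in WT (SD, n = 3) and in beta-catenin GOF at 583 ± 109 CPM, and an RNA level does not check an activating allele. It was at 1302.5, 845 and 1324 CPM in Hdac2 ECKO, above every WT library (546 to 809 CPM), a log2 difference of 0.82 (SE 0.29, edgeR adjusted p = 0.0711). Libraries labelled Ezh2 ECKO held 1303, 754 and 1248 CPM (0.75, SE 0.29, edgeR adjusted p = 0.131). Beta-catenin GOF lay below both without overlap, by log2 differences of −0.99 and −0.92 (edgeR adjusted p = 0.168 and 0.285). None of these Ctnnb1 differences passed the threshold. On the first principal component of all tested genes (37.5% of the variance), replicate 2 labelled Ezh2 ECKO was at −23.1, where WT spanned −59.0 to −20.0, and the other 2 libraries of its label were at 46.8 and 42.6. Hdac2 ECKO replicate 2 was at 6.80 and the other 2 Hdac2 ECKO libraries at 69.3 and 49.6.

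The members covered a wide range of levels in WT. Per kilobase of gene length, Lef1 was highest at 34.9 ± 10.7 CPM (SD, n = 3), followed by Tnfrsf19 at 22.1 ± 3.51, Tcf7 at 16.5 ± 1.04 and Nkd1 at 14.8 ± 5.72. Notum stood at 8.07 ± 1.23 CPM per kilobase, Apcdd1 at 7.13 ± 1.62, Axin2 at 2.81 ± 0.90, Znrf3 at 1.47 ± 0.46 and Sp5 at 0.89 ± 0.46. Of neighbours in this order, Lef1 and Tnfrsf19, Tcf7 and Nkd1, Notum and Apcdd1, Axin2 and Znrf3, and Znrf3 and Sp5 had overlapping values. Rnf43 (ENSMUSG00000034177.15, chromosome 11, 87662722 to 87735539, plus strand) had 8 counts in all 12 libraries together, between 0 and 2 in each, under the floor of 3 counts, so its RNA was not detectable above the floor in any group and no fold is given. Its paralogue Znrf3 was detected in all 12 libraries. Rnf43 was the 1 member that failed the filter of a mean count of 10, and Sp5 lay nearest above it with a mean count of 38.1.

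**Figure D1:**
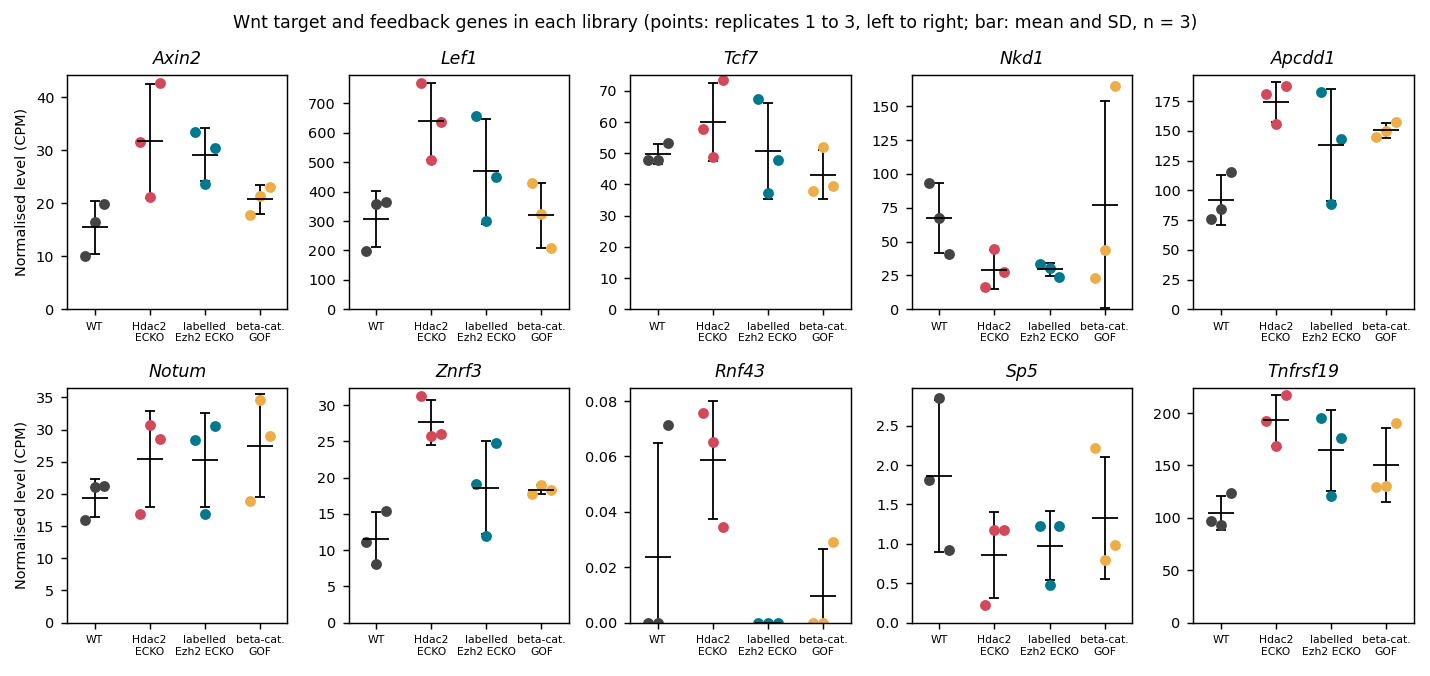
Level of each of the 10 genes in each library, in CPM on a linear axis that starts at 0 and differs between panels. Points are the 3 libraries of a group, and the bar is the mean with the SD; Axin2, Lef1, Apcdd1, Znrf3 and Tnfrsf19 lie above all WT libraries in all 3 Hdac2 ECKO libraries, and Rnf43 is under the floor of 3 counts throughout.

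In Hdac2 ECKO against WT, Znrf3, Apcdd1 and Tnfrsf19 rose, each by 1.85-fold to 2.39-fold. Axin2 and Lef1 were 2.06-fold and 2.08-fold higher but fell just short of the threshold. Nkd1 and Sp5 had lower mean levels, with log2 differences of −1.20 and −1.11 that did not pass, and the 95% intervals of Tcf7 and Notum included 0. Thus 3 of the 9 tested members were called, all higher (edgeR, Benjamini-Hochberg adjusted p under 0.05), where 9.2% of all 12577 tested genes were called and 3.82% were called higher. The median log2 fold change of the 9 was 0.88, against 0.10 for all tested genes. In 5 of the 9 all 3 Hdac2 ECKO libraries lay above all WT libraries, which held for 19.5% of the tested genes. At an unadjusted p under 0.05 edgeR gave 5 members higher, against 16.7% of all genes, and 1 lower (Nkd1), against 16.4%, or 33.1% in both directions together. None of the 3 calls was kept after a correction for gene length and GC content, where 919 of all genes were called. Nor was any kept without any 1 of 5 single libraries, where 0 to 324 of all genes were called.

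Transcripts of other cells moved with the groups too. Summed over 12 pericyte and smooth muscle markers, levels were 68.1 to 124 CPM in WT, 131 to 326 CPM in Hdac2 ECKO, 58.0 to 76.5 CPM in libraries labelled Ezh2 ECKO and 122 to 389 CPM in beta-catenin GOF. The 9 platelet and erythrocyte markers, mostly globin, summed to 36148 to 61418 CPM in WT against 406 to 21723, 2532 to 6715 and 528 to 35413 CPM in those groups. Neuronal markers (9 genes) summed to 160 to 301, 63.7 to 112, 178 to 423 and 118 to 248 CPM in the same order, and the 9 microglia and macrophage markers to 70.6 to 97.3, 39.3 to 62.1, 52.0 to 90.1 and 58.1 to 83.6 CPM. Astrocyte markers (8 genes) summed to 28.9 to 40.5, 54.4 to 79.8, 52.7 to 93.5 and 46.7 to 59.7 CPM. The 5 choroid plexus and ependyma markers summed to 0.855 to 2.09, 2.27 to 111, 26.0 to 182 and 0.290 to 33.4 CPM, with Foxj1 at 0 in all 12 libraries. Ttr made up most of the sum in the libraries where it was high, whereas Hdac2 ECKO replicate 1, at 2.27 CPM, lay just above the highest WT library. All 3 libraries labelled Ezh2 ECKO lay above every WT library as well. The 6 fibroblast markers summed to 1.07 to 4.44, 1.53 to 5.72, 0.16 to 4.78 and 2.56 to 3.72 CPM, and the 9 oligodendrocyte lineage markers to 22.3 to 78.1, 14.3 to 29.0, 13.6 to 35.2 and 13.4 to 26.7 CPM. Pericyte, astrocyte and choroid plexus sums were thus higher, and blood, neuronal and microglial sums lower, in all 3 Hdac2 ECKO libraries than in any WT library. Their part in the values of the members was not tested, and in bulk libraries fewer cells of a type and less RNA per cell cannot be told apart.

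Znrf3 (ENSMUSG00000041961.14, chromosome 11, 5276324 to 5444847, minus strand, GRCm38) removes Frizzled from the cell surface. WT libraries held 11.2, 8.14 and 15.4 CPM, and Hdac2 ECKO libraries held 31.2, 25.7 and 26.0 CPM, with no overlap. The log2 fold change was 1.26 (SE 0.31, 95% interval 0.59 to 1.92, edgeR adjusted p = 0.0355). The libraries labelled Ezh2 ECKO were at 19.1, 12.0 and 24.8 CPM and those of beta-catenin GOF at 17.7, 19.0 and 18.3 CPM. All 3 beta-catenin GOF libraries therefore lay above WT and below Hdac2 ECKO, whereas replicate 2 labelled Ezh2 ECKO lay within the WT range. Against WT, Znrf3 differed by 0.69 (SE 0.31, edgeR adjusted p = 0.186) in libraries labelled Ezh2 ECKO and by 0.66 (SE 0.31, edgeR adjusted p = 0.821) in beta-catenin GOF on the log2 scale.

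Apcdd1 (ENSMUSG00000071847.13, chromosome 18, 62922231 to 62961179, plus strand), which encodes a membrane inhibitor of Wnt signalling, was at 76.0, 84.1 and 116 CPM in WT. Hdac2 ECKO held 181, 156 and 188 CPM, all above WT, a log2 fold change of 0.93 (SE 0.27, 95% interval 0.35 to 1.499, edgeR adjusted p = 0.0455). In beta-catenin GOF Apcdd1 was at 145, 150 and 157 CPM, also above every WT library and with the smallest relative spread of any group. That log2 difference of 0.71 (SE 0.27) had an unadjusted p of 0.0175 and did not pass (edgeR adjusted p = 0.747). The libraries labelled Ezh2 ECKO were at 183, 88.4 and 143 CPM, so that replicate 2 again lay among the WT values, and the log2 difference was 0.59 (SE 0.27, edgeR adjusted p = 0.191).

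Tnfrsf19 (ENSMUSG00000060548.13, chromosome 14, 60963875 to 61046490, minus strand) was at 97.4, 92.9 and 124 CPM in WT, whereas Hdac2 ECKO libraries were at 193, 169 and 218 CPM. The groups did not overlap, and the log2 fold change was 0.88 (SE 0.26, 95% interval 0.34 to 1.43, edgeR adjusted p = 0.0455). It was at 196, 121 and 177 CPM in libraries labelled Ezh2 ECKO, of which replicate 2 lay within the WT range (log2 difference 0.65, SE 0.26, edgeR adjusted p = 0.139). In beta-catenin GOF the 3 libraries were at 129, 130.2 and 191 CPM, just above WT in 2 of the 3 (log2 difference 0.52, SE 0.26, edgeR adjusted p = 0.841).

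Axin2 (ENSMUSG00000000142.15, chromosome 11, 108920349 to 108950783, plus strand), the scaffold by which the pathway limits its own activity, was at 10.1, 16.5 and 19.9 CPM in WT. It was at 31.6, 21.1 and 42.7 CPM in Hdac2 ECKO and at 33.4, 23.7 and 30.4 CPM in libraries labelled Ezh2 ECKO, in both groups above every WT library. The log2 difference of 1.04 (SE 0.32) just missed the threshold (edgeR adjusted p = 0.0514), and that of 0.91 (SE 0.32) did too by more (edgeR adjusted p = 0.106). Beta-catenin GOF was at 17.8, 21.3 and 23.1 CPM, of which replicate 1 lay within the WT range, with a log2 difference of 0.42 (SE 0.32, 95% interval −0.25 to 1.09; edgeR adjusted p = 0.911).

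Lef1 (ENSMUSG00000027985.14, chromosome 3, 131110471 to 131224356, plus strand), the more abundant of the 2 TCF/LEF factors, was at 198, 359 and 364 CPM in WT, whereas Hdac2 ECKO libraries were at 770, 509 and 638 CPM. Those groups did not overlap, and the log2 difference was 1.06 (SE 0.34, edgeR adjusted p = 0.0596). In libraries labelled Ezh2 ECKO it was at 657, 301 and 450 CPM, a log2 difference of 0.61 (SE 0.34, edgeR adjusted p = 0.276). Beta-catenin GOF held 429, 322.5 and 208 CPM, of which replicate 1 lay above WT and the others within its range, with a log2 difference of 0.06 (95% interval −0.66 to 0.79, edgeR adjusted p = 0.993). Lymphocytes also express Lef1 and Tcf7. The 11 lymphocyte markers summed to 1.87 to 9.83 CPM per library, where Lef1 was at 198 to 770 CPM. The highest single values among them were 4.70 CPM for Cd79a, 2.46 for Cd2, 1.75 for Cd3d, 1.52 for Ptprc and 1.46 for Cd3g, while Cd3e reached 0.0757 CPM and Cd4 was at 0 in all 12 libraries. Their part in the Lef1 values was not tested.

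Tcf7 (ENSMUSG00000000782.15, chromosome 11, 52252371 to 52283331, minus strand), the other TCF/LEF factor of the list, showed no separation between groups. It was at 48.0, 47.9 and 53.4 CPM in WT, and in Hdac2 ECKO at 57.7, 48.7 and 73.3 CPM. Libraries labelled Ezh2 ECKO held 67.3, 37.1 and 47.7 CPM and those of beta-catenin GOF 38.0, 52.2 and 39.4 CPM. Every mutant group overlapped WT. The log2 differences were 0.27, 0.03 and −0.20 in that order, with 95% intervals of −0.30 to 0.83, −0.54 to 0.59 and −0.77 to 0.36. The smallest edgeR adjusted p of these was 0.504.

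Nkd1 (ENSMUSG00000031661.12, chromosome 8, 88521354 to 88594884, plus strand) had lower mean levels in 2 of the mutant groups, unlike the 5 genes that lay above WT in Hdac2 ECKO. Its levels were 93.2, 67.4 and 41.1 CPM in WT and, in Hdac2 ECKO, 16.1, 44.2 and 27.4 CPM, against 33.3, 30.8 and 24.1 CPM in libraries labelled Ezh2 ECKO. The log2 differences were −1.20 and −1.19 (SE 0.56 each; edgeR adjusted p = 0.148 and 0.200), neither past the threshold, although the latter group lay below WT without overlap. In beta-catenin GOF Nkd1 was at 22.9, 44.0 and 165 CPM, so that replicate 3 exceeded every other library of the study and replicate 1 was below every WT library. Its log2 difference from WT was 0.20 (SE 0.55, edgeR adjusted p = 0.979), and −1.01 without beta-catenin GOF replicate 3.

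Notum (ENSMUSG00000042988.10, chromosome 11, 120653788 to 120661175, minus strand), a secreted carboxylesterase that inactivates Wnt ligands, was at 16.0, 21.1 and 21.2 CPM in WT. It was at 16.9, 30.7 and 28.6 CPM in Hdac2 ECKO, 28.4, 16.9 and 30.6 CPM in libraries labelled Ezh2 ECKO and 18.9, 34.7 and 29.0 CPM in beta-catenin GOF. In each mutant group 2 of the 3 libraries lay above WT and 1 lay within its range. The log2 differences of 0.39, 0.38 and 0.50 (SE 0.32 each) did not pass (edgeR adjusted p = 0.418, 0.484 and 0.895). Sp5 (ENSMUSG00000075304.2, chromosome 2, 70474923 to 70477729, plus strand) was at 1.80, 2.85 and 0.93 CPM in WT, and in Hdac2 ECKO at 0.23, 1.17 and 1.18 CPM. Libraries labelled Ezh2 ECKO held 1.23, 0.47 and 1.22 CPM and those of beta-catenin GOF 2.22, 0.79 and 0.99 CPM. The groups overlapped and the libraries within a group spread widely. The log2 differences of −1.11, −0.93 and −0.48 (SE 0.84 to 0.85) did not pass (edgeR adjusted p = 0.377, 0.519 and 0.962).

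**Figure D2:**
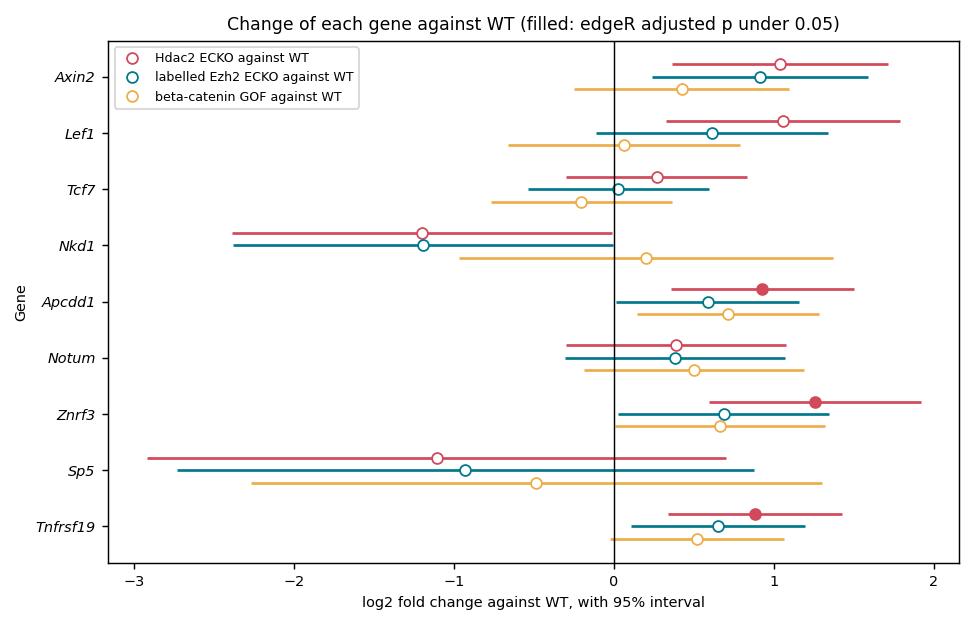
Log2 fold change against WT of the 9 tested genes, one line per mutant group, with the 95% interval from the edgeR fit; filled points passed the adjusted p of 0.05. Only Apcdd1, Znrf3 and Tnfrsf19 in Hdac2 ECKO are filled, Nkd1 and Sp5 lie left of 0 in Hdac2 ECKO and in libraries labelled Ezh2 ECKO, and the beta-catenin GOF lines of Apcdd1 and Znrf3 lie just right of 0.

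In libraries labelled Ezh2 ECKO against WT none of the 9 members passed, where 1.03% of all tested genes did (edgeR adjusted p under 0.05). At an unadjusted p under 0.05, 4 members (Axin2, Tnfrsf19, Znrf3 and Apcdd1) were higher and 1 (Nkd1) was lower, where 24.7% of all genes had such a p, 12.9% higher and 11.8% lower. Axin2 alone was higher without overlap (11.1% of all genes) and Nkd1 alone lower without overlap (10.9%). The median log2 difference of the members was 0.59, against 0.05 for all genes. Replicate 2 held the lowest Axin2, Znrf3, Apcdd1, Tnfrsf19 and Lef1 values of the group, so leaving it out raises their group means by construction. Without it 4 members passed, namely Axin2 at 1.04, Apcdd1 at 0.82, Znrf3 at 0.95 and Tnfrsf19 at 0.83 on the log2 scale (edgeR adjusted p from 0.0266 to 0.0426). The count over all genes went from 129 to 2328 in that fit. With any other single library left out, 0 members passed, and no separate evidence is drawn from the fit without replicate 2.

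In beta-catenin GOF against WT none of the 9 members passed (edgeR adjusted p under 0.05), as for all tested genes, of which 0% passed. At an unadjusted p under 0.05 there were 2 members, Apcdd1 and Znrf3, both higher, where 6.07% of all genes (763) had such a p and 2.83% were higher with it. Limma, DESeq2 and voom also called none of the members. Apcdd1, Znrf3 and Tnfrsf19 lay above WT in all 3 libraries, which held for 6.83% of all genes. The median log2 difference of the 9 was 0.42, against 0.01 for all genes. The contrasts of the mutants with WT share the WT libraries, and so their values are given side by side only.

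Between the mutants, no difference passed the threshold in any of the 9 members. The shares of all genes called were 0.0239% for Hdac2 ECKO against libraries labelled Ezh2 ECKO, 0.0716% for beta-catenin GOF against Hdac2 ECKO and 0.0636% for beta-catenin GOF against libraries labelled Ezh2 ECKO (edgeR adjusted p under 0.05). Unadjusted p-values under 0.05 were given by 0, 2 and 1 of the members in these contrasts, against 8.19%, 21.1% and 13.2% of all genes. Lef1 was lower in beta-catenin GOF than in Hdac2 ECKO, without overlap, by a log2 difference of −0.997 (SE 0.34, edgeR adjusted p = 0.169). Nkd1 was higher in beta-catenin GOF than in either, by 1.40 (SE 0.56) in both contrasts (edgeR adjusted p = 0.188 and 0.337), and by 0.19 in both without beta-catenin GOF replicate 3. The test of any difference among the 4 groups called 0 of the 9 members, against 0.731% of all genes. DESeq2 called 3 of them, where it called 2016 of all genes. At an unadjusted p under 0.05 edgeR gave 26.4% of all genes. Znrf3 had the smallest value among the members (edgeR adjusted p = 0.0994).

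**Figure D3:**
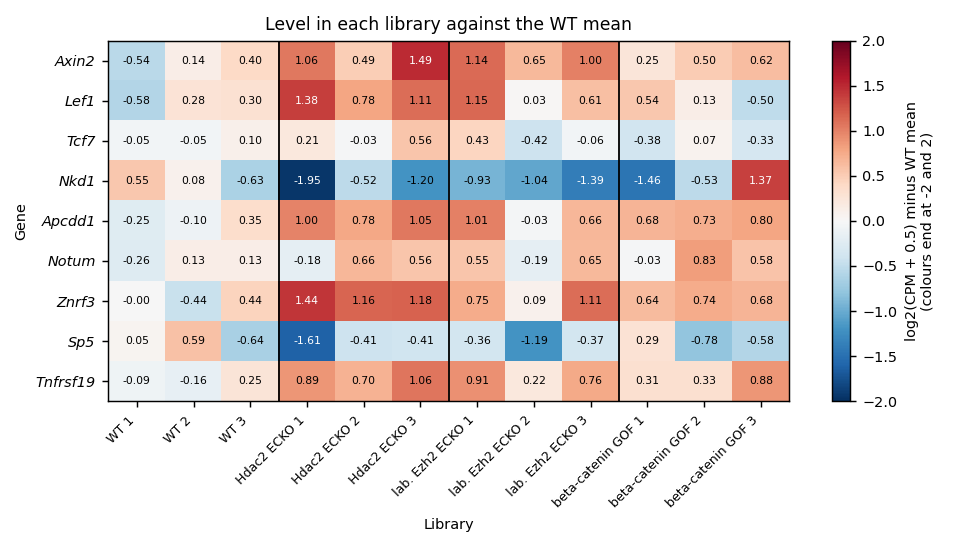
Difference of each library from the WT mean for the 9 tested genes, as log2(CPM + 0.5), with the value printed in each cell and vertical lines between groups; colours end at −2 and 2. Replicate 2 of libraries labelled Ezh2 ECKO is near 0 for Lef1, Apcdd1 and Znrf3 where the other 2 of its label are between 0.61 and 1.15, and Nkd1 is the row with the widest range.

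Library by library, members above the highest WT value numbered 6, 6 and 7 of 9 in Hdac2 ECKO replicates 1, 2 and 3. Libraries labelled Ezh2 ECKO had 7, 1 and 6, and those of beta-catenin GOF had 4, 5 and 6. Members below the lowest WT value numbered 2, 0 and 1, then 1, 3 and 2, then 2, 1 and 1 in the same order. The shares of all tested genes outside the WT range in each library were not worked out, so these counts have no background beside them. Over the 12 libraries the members fell into no single pattern. Apcdd1 and Tnfrsf19 ran closest together (Pearson r = 0.91 of log2(CPM + 0.5)), followed by Apcdd1 with Znrf3 (r = 0.89), Znrf3 with Tnfrsf19 (r = 0.87) and Axin2 with Tnfrsf19 (r = 0.86). Lef1 and Nkd1 were opposed (r = −0.80), and the 2 TCF/LEF factors Lef1 and Tcf7 had r = 0.65. These coefficients describe 12 libraries that share groups and scaling, and no test was made of them.

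Gene length moved with these differences. Over all tested genes the log2 difference between Hdac2 ECKO and WT correlated with gene length (Spearman rho 0.44 across genes, which are not independent replicates), and its median was −0.52 in the shortest of 5 equal bins of genes and 0.66 in the longest. The corresponding rho was 0.29 for libraries labelled Ezh2 ECKO but 0.14 for beta-catenin GOF. Apcdd1, with 12884 bases, was at least as long as 95.5% of tested genes, Lef1 had 8788 bases and Znrf3 7893 bases, all in the longest bin. Sp5 (2100 bases) and Notum (2408 bases) were in the shortest. With counts corrected for length and GC content, none of the members passed in Hdac2 ECKO against WT: Apcdd1 was at 0.18 (edgeR adjusted p = 0.598), Lef1 at 0.45 (0.339), Znrf3 at 0.76 (0.0827) and Tnfrsf19 at 0.75 (0.0557) on the log2 scale. Axin2 and Tnfrsf19, nearer the middle of the length range, kept most of their difference, with Axin2 at 0.89 (edgeR adjusted p = 0.0888). The short Notum moved up to 0.85 and Tcf7 to 0.57, neither past the threshold. Whether length itself accounts for the uncorrected differences was not tested.

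**Figure D4:**
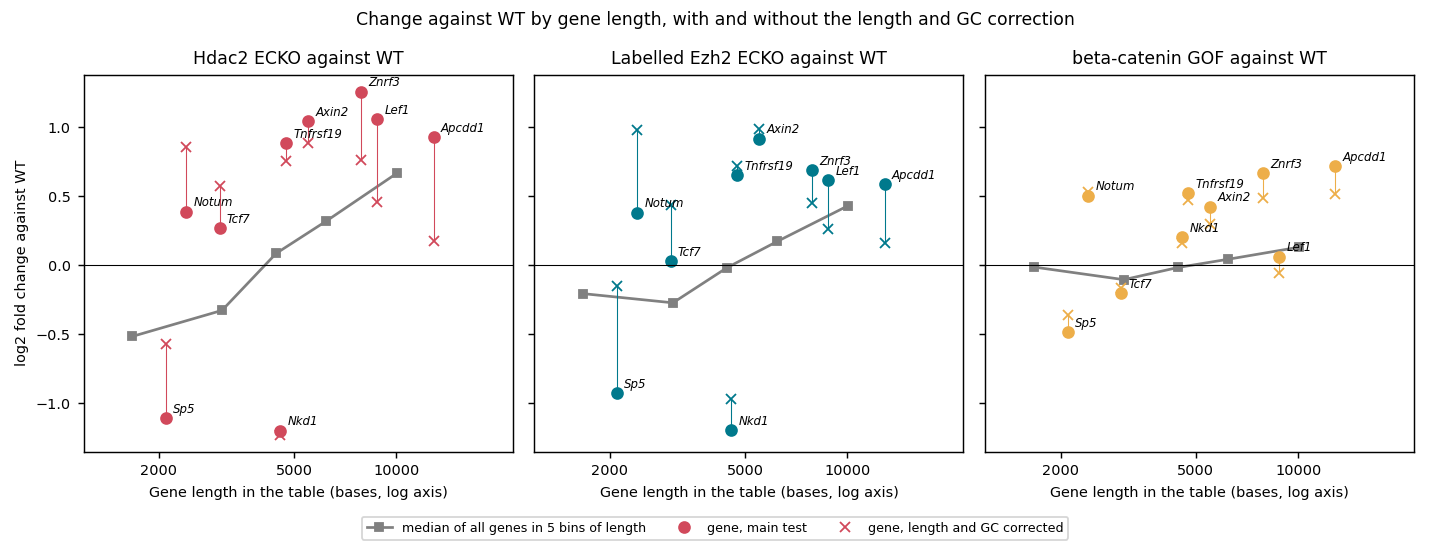
Log2 fold change against WT by gene length (bases, log axis) in 3 panels, one per mutant group. Grey squares are medians of all tested genes in 5 bins of length, filled circles the members in the edgeR fit and crosses the same genes after the length and GC correction; in Hdac2 ECKO the grey line climbs from −0.52 to 0.66, and Apcdd1 drops from 0.93 to 0.18.

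The 3 calls in Hdac2 ECKO also rested on few libraries. None of the members passed without WT replicate 1, WT replicate 2, Hdac2 ECKO replicate 1, Hdac2 ECKO replicate 3 or beta-catenin GOF replicate 2. Calls over all genes fell in the same fits, from 1157 to 0, 0, 1, 0 and 324 in that order, so the loss was not particular to the members. Only 1 member passed without replicate 3 labelled Ezh2 ECKO, beta-catenin GOF replicate 1 or beta-catenin GOF replicate 3 (1129, 529 and 615 of all genes). Without Hdac2 ECKO replicate 2 or replicate 2 labelled Ezh2 ECKO 5 members passed (2220 and 2760 of all genes). Without WT replicate 3 the count of members was 4 (1868 of all genes), and without replicate 1 labelled Ezh2 ECKO it was 3 (1177 of all genes). Over these 12 fits Znrf3 stayed between 1.05 and 1.52, Apcdd1 between 0.81 and 1.12 and Tnfrsf19 between 0.77 and 1.02 on the log2 scale. Among 13 other settings, which called 919 to 5374 of all genes, Znrf3 and Tnfrsf19 passed in 11 and Apcdd1 in 10. Of the genes that had not passed, Axin2 did in 8 and Lef1 in 7.

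The rest of the pathway was examined with a list of 110 Wnt genes that holds none of the members, of which 66 passed the filter. In Hdac2 ECKO against WT, 1 of the 66 rose and 2 fell (edgeR adjusted p under 0.05), against 3.82% of all tested genes called higher and 5.38% called lower, and the median log2 difference was 0.50, against 0.10 for all tested genes. Reck, a membrane protein that with Gpr124 lets brain endothelium respond to Wnt7 ligands, rose from 47.3, 48.9 and 77.6 CPM in WT to 147, 93.6 and 132 CPM (log2 difference 1.10, SE 0.31, edgeR adjusted p = 0.0429). Tle5, a short member of the Groucho family of corepressors, fell from 318, 299 and 193 CPM to 23.4, 65.0 and 21.6 CPM (log2 difference −2.88, SE 0.67, edgeR adjusted p = 0.0338). Bambi, a transmembrane pseudoreceptor of the TGF-beta family that is also a reported Wnt target, fell from 96.1, 54.6 and 55.2 CPM to 24.5, 24.8 and 26.7 CPM (log2 difference −1.44, SE 0.43, edgeR adjusted p = 0.0490). In all 3 the groups did not overlap, but these genes were named for passing in the same values, so this adds no separate evidence. Upward non-overlap held for 19.5% of all tested genes, and the downward share is not given here.

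By role in Hdac2 ECKO, none of the 4 tested ligands and secreted agonists passed, 1 of 13 receptors and co-receptors did (Reck), none of 16 transducers and destruction complex genes, 1 of 14 nuclear partners (Tle5), none of 4 extracellular inhibitors and 1 of 15 other reported targets (Bambi). In libraries labelled Ezh2 ECKO 0 of the 66 passed, where 1.03% of all tested genes did. At an edgeR unadjusted p under 0.05 there were 11 of the 66, against 24.7% of all genes. DESeq2 called 2 of the 66, where it called 1271 of all genes. Among the smallest p-values were those of Reck (log2 difference 0.95, edgeR adjusted p = 0.0955) and Bambi (−1.20, 0.114). In beta-catenin GOF 0 of the 66 passed, as for all tested genes. At an edgeR unadjusted p under 0.05 there were 4 of the 66, against 6.07% of all genes. DESeq2 called 1 of the 66, where it called 38 of all genes. Dkk2, a secreted Wnt modulator, had the smallest p (edgeR adjusted p = 0.538), and its 3 libraries were at 3.27, 0.53 and 23.7 CPM against 0 to 1.14 CPM in WT, so that replicate 3, the library with the high Nkd1, also held the high Dkk2. Kremen2, which encodes a receptor for Dkk proteins, and the cyclin gene Ccnd1 came next with log2 differences of 2.81 and 1.05 (edgeR adjusted p = 0.748 and 0.776). Kremen2 was at 0.11 to 0.19 CPM in WT, near the floor, and at 2.32, 0.42 and 0.64 CPM in beta-catenin GOF. Ccnd1 was at 24.6, 24.9 and 76.7 CPM there, against 13.7 to 26.3 CPM in WT, so that only replicate 3, again the library with the high Nkd1, lay above WT. The list medians were 0.38 and 0.12, against 0.05 and 0.01 for all genes.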

How the data were processed

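The authors deposited 1 table with 1 value per gene and library, together with gene coordinates and lengths. Its title calls the values normalized, but the deposited values were whole numbers with a different total in each library. Low values were mostly even (79.5% to 84.0% per library, against 59.4% to 67.1% of higher ones), as counts of both mates are. They were used as raw counts. The submitters' processing notes name FastQC, cutadapt, STAR, featureCounts, DESeq2 and build mm10 without roles. The authors' deposited counts carry no further description, and versions, the annotation and the use of strand are not given in the sources used here. Per the labels' protocols, libraries were made from sorted cells with a SMART-Seq V4 PLUS kit and sequenced as pairs. Table positions matched GENCODE M21 (GRCm38) for 98.4% of genes. Genes on the opposite strand overlap Axin2, Lef1, Tcf7, Notum, Tnfrsf19 and Rnf43, so their counts may include reads of the partner. Genes on the same strand overlap Lef1, Tcf7, Nkd1 and Rnf43, and what this did to the counts was not tested.

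The members and gene lists were chosen with earlier results of these data known. All 12 libraries entered 1 edgeR 4.0.16 quasi-likelihood fit (R 4.3.3, TMM scaling, a term per group) over 12577 genes, those of mean count 10 or more. P-values were adjusted by Benjamini-Hochberg over all tested genes within a contrast, with a threshold of 0.05. The SE was derived from the F statistic. The scripts were tested on simulated data. Named are all members, the targeted genes, list genes past the threshold or, with none, the 3 with the smallest p, and for each member the 3 genes of most similar pattern. A few genes that this rule names are not reported here.

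The labels do not say that replicates came from separate animals, so p-values measure only the spread between these samples. Counts of replicates differed by more than sampling noise in every pair (chi-square per degree of freedom at least 66.7). Same-numbered libraries correlated by more than 0.1 in 5 of 18 pairs of groups and numbers (−0.22 to 0.38), and in all 3 pairs only for Hdac2 ECKO with libraries labelled Ezh2 ECKO. There the numbers were taken to pair the libraries, and 0 members passed with and without the replicate block. For the other contrasts they were not. Alternatives were other scalings, filters, DESeq2 1.42.0, limma 3.58.1 with pseudocounts of 1 and 0.1 CPM, and its voom method on counts with sample quality weights. The others were the block, a length and GC correction (mgcv 1.9.3), the 2 groups alone and each library left out.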

Additional observations from a re-analysis of the deposited data

How the results depend on the processing

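The count of members past the threshold in Hdac2 ECKO against WT was 3, and it was 1 with median-ratio scaling, 5 with library size alone, with DESeq2 and with limma at either pseudocount, 6 without a filter and with voom, 0 with the length and GC correction, 1 with that correction and the replicate block, and 0 to 5 leaving out 1 library. With the block alone it was 4. Over all genes 1157 passed in the main fit, 1049 with median-ratio scaling, 1826 with library size alone and 2497 with DESeq2. Limma gave 1712 and 1646 at pseudocounts of 1 and 0.1 CPM, the fit without a filter 2279 and voom 5374 of the 12577 tested genes. The length and GC correction gave 919, the same with the block 1232 and the block alone 1832. Library size alone also moved the median of all genes from 0.10 to 0.34. In libraries labelled Ezh2 ECKO against WT the count of members was 0, with 1 without a filter (1367 of all genes) and 4 with voom (3743 of all genes). Leaving out 1 library it was 0 to 4 (2 to 2328 of all genes). In beta-catenin GOF against WT it was 0 in every setting run. For beta-catenin GOF against Hdac2 ECKO it was 2 without a filter and 4 with voom (978 and 3339 of all genes). Against libraries labelled Ezh2 ECKO it was 1 without a filter (359 of all genes). For any difference it was 2 without a filter, 3 with DESeq2 and 5 with voom (2483, 2016 and 5015 of all genes). Leaving out 1 library it was 0 to 4 (10 to 2441 of all genes).

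Of the Wnt list, 3 genes passed in Hdac2 ECKO against WT, with 13 under library size alone, 10 without a filter, 5 at a mean count of at least 50, 8 with DESeq2, 5 with limma at either pseudocount, 27 with voom, 6 with the replicate block, 5 with block and length correction, 6 in the 2 groups alone and 0 to 12 leaving out 1 library. In libraries labelled Ezh2 ECKO 0 passed, with 7 without a filter, 2 with DESeq2, 21 with voom, 1 with the block, 1 with block and length correction and 0 to 11 leaving out 1 library. In beta-catenin GOF 2 passed without a filter and 1 with DESeq2 (157 and 38 of all genes). Voom, which gave 27 and 21 list genes in the other contrasts, called 5374 and 3743 of all 12577 tested genes there. In libraries labelled Ezh2 ECKO DESeq2 called 1271 of all genes and the fit without a filter 1367. Over all genes, the 1157 calls in Hdac2 ECKO ranged from 919 to 5374 in settings with all libraries and from 0 to 2760 leaving out 1, the 129 in libraries labelled Ezh2 ECKO from 17 to 3743 and from 2 to 2328, and the 0 in beta-catenin GOF from 0 to 157 and from 0 to 4.

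Differences that changed sign were all uncalled. Lef1 in beta-catenin GOF was 0.06, against −0.006 with the block, −0.059 with the length and GC correction, −0.12 with both, and −0.21 to 0.29 leaving out 1 library. Tcf7 in libraries labelled Ezh2 ECKO was 0.03, against −0.0135 and −0.0144 with limma at pseudocounts of 1 and 0.1 CPM and −0.25 to 0.21 leaving out 1 library. Nkd1 in beta-catenin GOF was 0.20, against −0.20 and −0.21 with limma, −0.40 with voom, −0.0108 with the block, −0.0459 with block and length correction, and −1.01 to 0.64 leaving out 1 library. The cause was not tested. Sp5 was not tested at a mean count of at least 50, and Rnf43 stayed under the floor.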

Other observations

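For each member with a mean of at least 1 CPM, the genes whose levels ran most like it over the 12 libraries were found by Pearson correlation of log2(CPM + 0.5) among the tested genes. Znrf3 ran closest to Adgrl3 (r = 0.96), Mid1 (0.95) and Cdk8 (0.94). Genes close to Apcdd1 were Trak2 (0.94) and Mpp7 (0.93). Tnfrsf19 ran closest to the transcription factor gene Nfib (0.95), the kinesin gene Kif5b (0.94) and the nuclear receptor gene Rora (0.94). Genes close to Axin2 were Kif1c (0.95) and Sel1l (0.94), and Lef1 ran closest to Hivep1 (0.96), Zc3h18 (0.95) and Sema6a (0.95).

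Nkd1, which stood apart from those members, ran closest to Herpud1 (0.96), Cdc42ep2 (0.94) and Pon2 (0.93). Tcf7 ran closest to Trim41 (0.92), Rin2 (0.87) and Sh3bp4 (0.87), Notum to Sec16a (0.92), Daam1 (0.89) and Pcdhgc4 (0.87), and Sp5 to Gatb (0.88), Gm20605 (0.86) and Slfn3 (0.85). No gene of these lists was itself a member. Of the 27 genes found in this way, 22 were longer than the median tested gene. The 12 libraries share groups, depth and scaling, and no test was made of these coefficients.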
